A study of Homo sapiens with 20 samples.

Results

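The APOBEC3 cytidine deaminases were followed across U2OS cells, a human osteosarcoma line, with and without interferon-γ (IFNγ) and with and without the zinc finger protein ZBTB48. They were taken by gene symbol, as the 7 genes APOBEC3A, APOBEC3B, APOBEC3C, APOBEC3D, APOBEC3F, APOBEC3G and APOBEC3H, out of 43366 genes in the count table. The 4 groups were U2OS WT clones without treatment, the same WT clones after IFNγ at 250 U/ml for 24 h, ZBTB48 KO clones without treatment, and the same KO clones after IFNγ at that dose and time. Each group had 5 libraries of polyA RNA, each from another clone of the 1 parental line, and the labels name the clone, so that an untreated and a treated library share a clone within a genotype. The study asked how the loss of ZBTB48 alters transcription when cells meet IFNγ.

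APOBEC3 enzymes turn cytosine into uracil in single-stranded DNA. They are best known as part of the innate defence against retroviruses and retrotransposons, where the deaminated strand is mutated or degraded, and HIV-1 answers with its Vif protein, which sends several of them to the proteasome. Several members, APOBEC3G and APOBEC3A among them, are known as interferon-stimulated genes in blood cells, and APOBEC3A and APOBEC3B are held to be sources of mutation in tumours.

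The 20 libraries held between 46652288 and 72952859 counts each, and levels are given as CPM, counts scaled to a common library size after TMM normalization, or, to compare genes, as TPM, which also divides by gene length. Up to 3 counts in a library, which came to between 0.0404 and 0.0610 CPM, were read as the floor. The genotype was checked first. ZBTB48 ranged from 8.03 to 9.44 CPM in the untreated WT clones and from 8.81 to 11.6 CPM in the treated ones. In the untreated libraries labelled KO it stood at 1.29, 1.94, 11.3, 3.12 and 4.06 CPM, and in the treated ones at 1.69, 1.78, 15.8, 3.84 and 5.27 CPM. KO replicate 3 thus had more ZBTB48 mRNA than any WT clone at the same treatment. Whether the KO of this clone leaves a transcript is not given in the sources used here, and the libraries are called by their labels. MTFP1, a known target of ZBTB48, lay at or below 0.938 CPM in all 10 libraries labelled KO, replicate 3 included, and at or above 27.2 CPM in all 10 WT libraries. The untreated and treated libraries of KO replicates 4 and 5 did not resemble each other as those of the other clones did, so results that use the clone are also given with these treated libraries exchanged. As for the labelled cell type, 5 of 9 osteoblast markers exceeded 1 CPM in some library of every group, with COL1A1 and SPARC highest and SP7, BGLAP, IBSP and COL1A2 below 1 CPM throughout. Of 10 blood cell markers, 2 or 3 exceeded 1 CPM in a group (CD8A, CD4 and, in KO clones, ITGAM), and their summed level ran from 2.38 to 5.92 TPM in WT, from 2.39 to 8.12 in treated WT, from 1.05 to 5.48 in KO and from 0.792 to 6.52 in treated KO libraries, with CD3E no higher than 0.0652 CPM.

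The 7 genes sit head to tail on the plus strand of chromosome 22 in GRCh38, within 146459 bases. APOBEC3A runs from 38957609 to 38963184, APOBEC3B from 38982347 to 38992779, APOBEC3C from 39014257 to 39020352 and APOBEC3D from 39021127 to 39033277. APOBEC3F follows from 39040864 to 39055972, APOBEC3G from 39077005 to 39087743 and APOBEC3H from 39097244 to 39104067. The genes are close copies of each other, and the authors kept uniquely mapped reads, so near-identical stretches lose reads. Of all windows of 100 bases in their GENCODE transcripts, 9.16% of those of APOBEC3A and 14.7% of those of APOBEC3B occurred in another member, in most cases in each other. The share was 8.73% for APOBEC3D and 6.78% for APOBEC3F, 3.54% for APOBEC3G, and 0% for APOBEC3C and APOBEC3H, whose counts are the least exposed. The end of APOBEC3B also overlaps its antisense gene APOBEC3B-AS1 over 211 bases, 13.3% of its counted length.

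Per length, APOBEC3B and APOBEC3C dominated in every group. In untreated WT clones, APOBEC3B stood at 102 TPM ± 33.7 (SD, n = 5) and APOBEC3C at 97.9 ± 15.6, and their ranges overlapped. APOBEC3F followed at 7.11 TPM ± 0.43, below every library of those genes. APOBEC3D at 1.61 TPM ± 0.75, APOBEC3G at 0.726 ± 0.889 and APOBEC3H at 0.618 ± 0.198 could not be set apart from each other by their ranges, and APOBEC3A was last at 0.104 ± 0.0639. The untreated KO clones had the same order, with APOBEC3B at 117 TPM ± 30.7 and APOBEC3C at 92.0 ± 29.1, again with overlapping ranges.

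After IFNγ the make-up of the family differed while its sum was nearly level. The summed TPM of the 7 genes was 209.9 ± 35.3 in untreated and 209 ± 26.5 in treated WT clones, and 219.8 ± 49.96 and 222 ± 30.7 in the KO clones. APOBEC3B made up 48.5% of the summed mean level in untreated and 59.2% in treated WT clones, and 53.3% and 64.0% in the KO clones. APOBEC3C made up 46.7% and 29.98% in WT and 41.8% and 22.6% in KO clones. In single WT libraries the ratio of APOBEC3B to APOBEC3C per length ran from 0.701 to 1.84 untreated, with APOBEC3B ahead in 2 of 5, and from 1.59 to 3.14 treated, with APOBEC3B ahead in 5 of 5. In KO libraries it ran from 0.752 to 2.49 untreated, ahead in 4 of 5, and from 2.05 to 5.09 treated, ahead in 5 of 5. APOBEC3G changed its place in the order: in treated KO clones it ranked 3 at 14.98 TPM ± 13.7, overlapping APOBEC3F at 11.2 ± 3.39, and in treated WT clones it ranked 4 at 7.84 ± 4.49, overlapping APOBEC3F at 12.1 ± 2.31. The order rests on the counted lengths, 7752 bases for APOBEC3F and 3318 for APOBEC3G. In CPM, APOBEC3F had the higher mean in treated KO clones, 32.4 against 18.3.

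**Figure D1:**
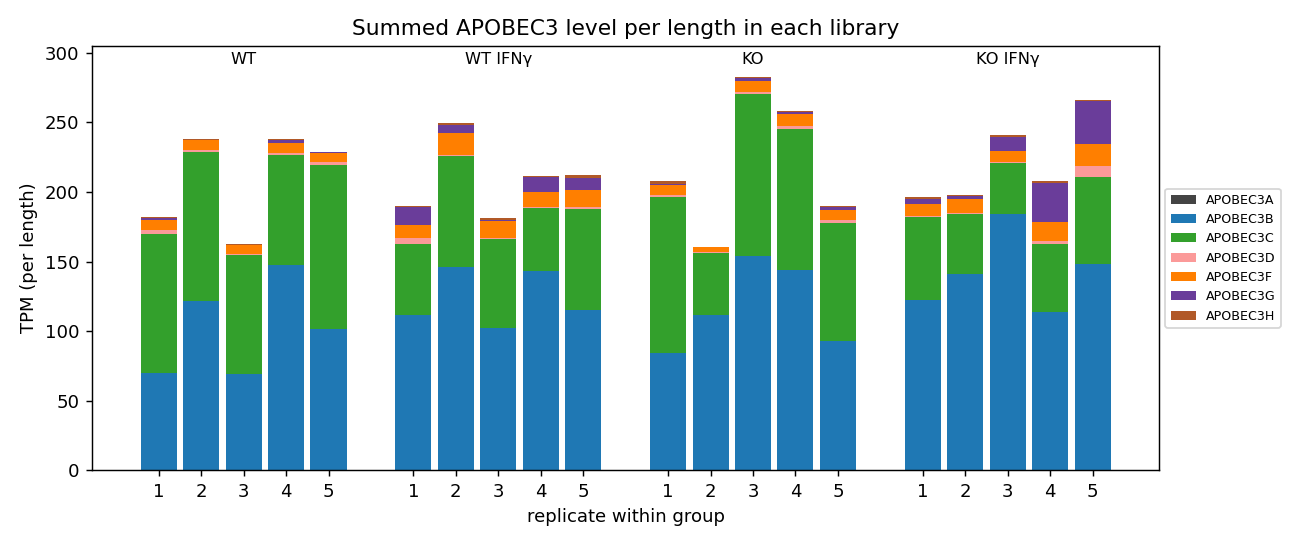
Stacked bars of the level per length (TPM, y axis) of the 7 APOBEC3 genes in each of 20 libraries, by group and replicate (x axis). The blue APOBEC3B part exceeds the green APOBEC3C part in all 10 treated libraries and in 6 of 10 untreated ones, and the purple APOBEC3G part is visible mainly in treated libraries.

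The response to IFNγ was tested gene by gene, within WT and within KO clones, with edgeR's quasi-likelihood test over all genes. A gene was called when its Benjamini-Hochberg adjusted p was under 0.01 and its change over 2-fold. These are the cut-offs the study used for WT against KO. For IFNγ against untreated cells the study marked further genes at a higher fold cut-off. APOBEC3A did not pass edgeR's filter on low counts, which left 6 members tested. No member was called in either genotype (0 of 6 in each), against 3% of all genes tested in WT and 1.96% in KO clones, and DESeq2 called none either. These fits did not pair the libraries of a clone. With the clone as a block, APOBEC3G was called in both genotypes, as given below. At an unadjusted p under 0.05, 4 of 6 members passed in WT clones (APOBEC3C, APOBEC3F, APOBEC3G and APOBEC3H), against 24.9% of all genes. In KO clones 3 of 6 did (APOBEC3C, APOBEC3F and APOBEC3G), against 23.5%. On the adjusted p alone, under 0.01, APOBEC3F passed in WT clones and no member in KO clones, where 4.83% and 2.61% of all genes passed. Under 0.05, the members that passed were APOBEC3F in WT and APOBEC3C in KO clones, against 11.3% and 7.88%. The median log2 fold change of the 6 tested members was 0.59 in WT and 0.48 in KO clones, where that of all genes was -0.03 in both.

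**Figure D2:**
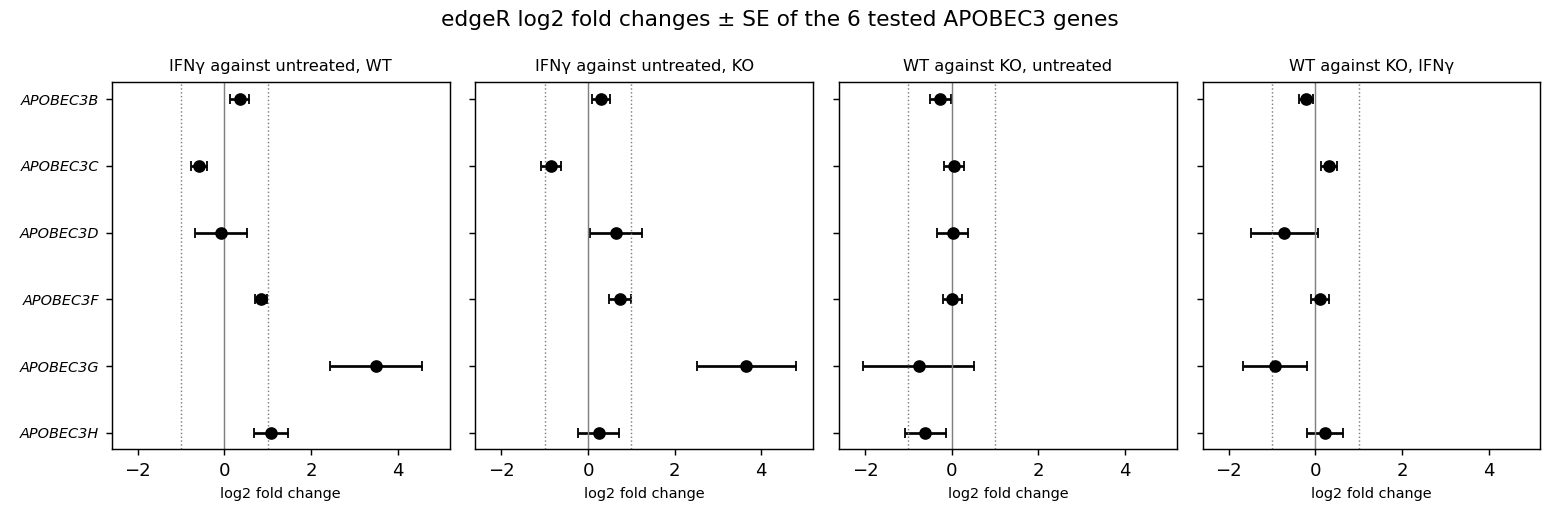
Log2 fold change (x axis) with its SE from edgeR for the 6 tested APOBEC3 genes (y axis), for IFNγ against untreated in each genotype and for WT against KO at each treatment, with dotted lines at a 2-fold change. APOBEC3G lies farthest from 0 with IFNγ in both genotypes, at 3.51 and 3.66, and has the widest SEs.

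APOBEC3G, the member best known for restricting HIV-1 that lacks Vif, had the largest IFNγ difference. In the untreated WT clones it stood at 2.01, 0.0353, 0.0203, 1.97 and 0.230 CPM in replicates 1 to 5, and in the treated ones at 16.0, 7.53, 1.40, 12.6 and 11.0 CPM. In the untreated KO clones it stood at 0.0773, 0, 2.76, 1.86 and 2.55 CPM, and in the treated ones at 3.78, 2.94, 13.7, 35.0 and 36.3 CPM. The KO groups did not overlap, while in WT the treated replicate 3 fell below the untreated replicates 1 and 4. The untreated clones ranged from 0 counts in KO replicate 2 to 168 in KO replicate 3, and 3 of the 20 libraries, all untreated, had at most 3 counts. The mean ± SD was 0.854 ± 1.04 untreated and 9.71 ± 5.55 CPM treated in the 5 WT clones, which edgeR put at a log2 fold change of 3.51 (SE 1.06, edgeR's adjusted p = 0.0555), and 1.45 ± 1.33 and 18.3 ± 16.4 CPM in the 5 KO clones, 3.66 (SE 1.14, adjusted p = 0.0765). In bulk RNA, more cells that express the gene and more RNA per cell cannot be told apart.

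Within a clone APOBEC3G was higher after IFNγ in 5 of 5 WT and 5 of 5 KO clones. The mean difference over the clones on the log2(CPM + 0.1) scale was 4.02 ± 1.38 (SD, n = 5) in WT and 3.92 ± 1.01 in KO clones, where an exact sign-flip test gave p = 0.0625 in each, the smallest 5 clones allow. With the clone as a block in edgeR, which takes out the differences between clones, APOBEC3G was called in both genotypes. It rose by 3.93 (SE 0.68, edgeR's adjusted p = 0.00953) in WT clones and by 4.05 (SE 0.56, edgeR's adjusted p = 0.00453) in KO clones, or by 3.86 (SE 0.53, adjusted p = 0.00345) with KO replicates 4 and 5 exchanged. This made 1 of 6 members called in each genotype, against 6.84% of all genes in WT, 3.45% in KO and 5.78% in KO clones with the exchange. Over all alternatives the adjusted p ranged from 0.00953 to 0.418 in WT and from 0.00345 to 0.570 in KO clones. The alternatives include glmTreat, which tests for a change over 2-fold and not for any change. The shrunken fold change of DESeq2, the estimate the study's methods name, was 0.60 and 0.54. Compared without clones by a two-sided exact permutation test, the treated and untreated groups gave p = 0.0238 in WT and 0.00794 in KO clones, the latter the smallest that 5 against 5 libraries allow.

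The 5 clones with over 100 APOBEC3G counts when untreated (WT replicates 1 and 4 and KO replicates 3, 4 and 5) were also the 5 with the highest CPM when treated, in another order. They come from both genotypes and include KO replicate 3. The clones at the bottom when treated, WT replicate 3 at 1.40 CPM and KO replicate 2 at 2.94 CPM, had 1 and 0 counts when untreated.

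**Figure D3:**
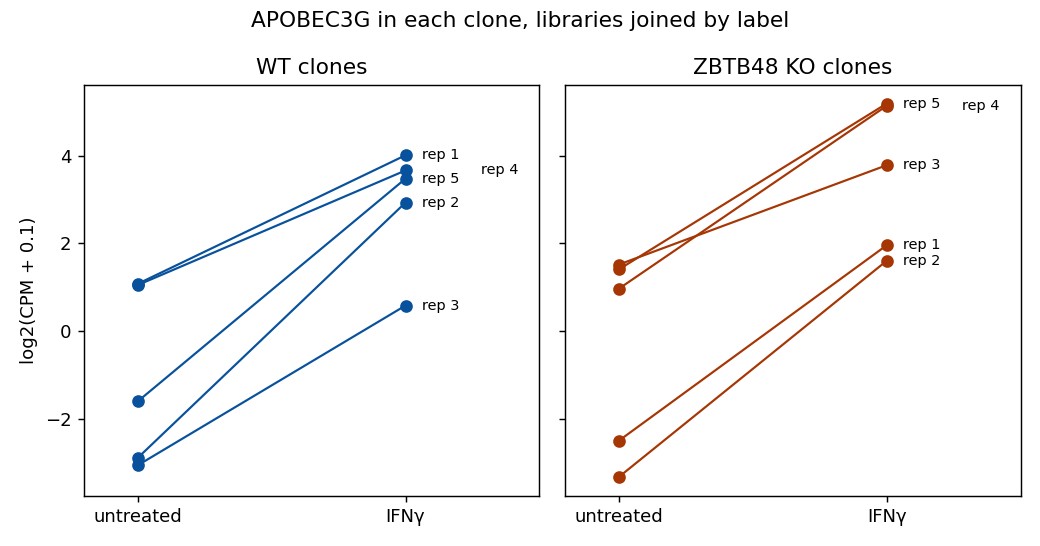
APOBEC3G in each clone on the log2(CPM + 0.1) scale (y axis), untreated and after IFNγ (x axis), for 5 WT and 5 ZBTB48 KO clones, with a line joining the libraries that carry the same clone label. Every line goes up, by 2.26 to 5.82, from untreated levels between 0 and 2.76 CPM.

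APOBEC3F, a further restriction factor against Vif-deficient HIV-1, rose in WT clones. It stood at 19.4, 20.9, 17.6, 20.9 and 19.8 CPM in the untreated and at 27.5, 45.9, 33.1, 30.2 and 37.9 CPM in the treated WT clones. Each treated library was above each untreated one. In KO clones it stood at 19.8, 9.11, 23.2, 23.8 and 21.0 CPM untreated and at 25.7, 28.7, 24.1, 39.4 and 43.8 CPM treated, also without overlap, although replicate 3 at 24.1 CPM was only just above the highest untreated library. The log2 fold change was 0.84 in WT clones (SE 0.14, edgeR's adjusted p = 0.00278, 1.20e-06 to 1 over the alternatives), past the p cut-off and short of 2-fold, and 0.74 in KO clones (SE 0.26, edgeR's adjusted p = 0.118). The alternatives include glmTreat, which tests for a change over 2-fold, and both estimates lie below that. The two-sided exact permutation test gave p = 0.00794 in each genotype. Groups without overlap were found for 11.1% of all tested genes in WT and 9.55% in KO clones, and for 1 and 2 of the 6 tested members, APOBEC3F in both and APOBEC3G in KO clones.

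APOBEC3C, a small member with a lone catalytic domain and weak antiviral activity, was the 1 tested member of 6 whose mean was lower after IFNγ in both genotypes. In WT clones it stood at 95.6, 105, 77.1, 73.0 and 114 CPM untreated and at 51.1, 80.3, 60.6, 43.4 and 73.0 CPM treated. In KO clones it stood at 103, 45.4, 117, 97.3 and 81.3 CPM untreated and at 57.7, 43.6, 38.1, 47.7 and 59.4 CPM treated. The groups overlapped, in KO clones through the untreated replicate 2 alone, and within a clone the treated library was lower in 5 of 5 clones of each genotype, by between 0.06 and 1.62 on the log2(CPM + 0.1) scale. The log2 fold change was -0.58 in WT (SE 0.18, edgeR's adjusted p = 0.0686) and -0.85 in KO clones (SE 0.23, adjusted p = 0.0472), and the two-sided exact permutation test gave p = 0.0317 in each genotype. With the clone as a block it fell by 0.59 in WT clones (SE 0.08, edgeR's adjusted p = 7.71e-05), still short of 2-fold.

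APOBEC3B, a nuclear member that is often high in tumour cell lines, differed less. It stood at 40.3, 72.2, 37.5, 81.0 and 58.6 CPM in untreated and at 66.7, 88.1, 58.3, 82.0 and 69.9 CPM in treated WT clones. In KO clones it stood at 46.5, 68.0, 92.7, 83.3 and 53.4 CPM untreated and at 71.2, 85.6, 117, 67.2 and 84.1 CPM treated. The groups overlapped in both genotypes, and KO replicate 4 was the only clone with a lower treated library, which it was not when replicates 4 and 5 were exchanged. The log2 fold change was 0.35 (SE 0.21, edgeR's adjusted p = 0.355) in WT and 0.30 (SE 0.21, adjusted p = 0.437) in KO clones. With the clone as a block it was 0.40 in WT clones at an adjusted p of 0.00919 by edgeR, short of 2-fold.

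APOBEC3D and APOBEC3H were low. APOBEC3D, which also restricts HIV-1 and whose start lies 774 bases past the end of APOBEC3C, stood at 2.71, 1.62, 0.975, 0.783 and 1.81 CPM in untreated and at 4.17, 1.11, 0.417, 0.607 and 1.11 CPM in treated WT clones. In KO clones it stood at 1.64, 0.952, 1.43, 2.06 and 1.62 CPM untreated and at 0.846, 0.921, 0.946, 1.93 and 7.43 CPM treated. WT replicate 1 and KO replicate 5 were higher after IFNγ, by 0.60 and 2.13 on the log2(CPM + 0.1) scale, and the other 8 clones were lower, while the exchange of KO replicates 4 and 5 makes 2 KO clones higher. The log2 fold changes were -0.07 (SE 0.60, edgeR's adjusted p = 0.962) in WT and 0.65 (SE 0.61, adjusted p = 0.578) in KO clones, and the latter was -0.38 without replicate 5.

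APOBEC3H, the most variable member between human haplotypes, stood at 0.266, 0.370, 0.163, 0.294 and 0.177 CPM in untreated and at 0.417, 0.726, 0.606, 0.236 and 0.695 CPM in treated WT clones. In KO clones it stood at 0.869, 0.162, 0.280, 0.304 and 0.317 CPM untreated and at 0.734, 0.248, 0.511, 0.415 and 0.387 CPM treated. These are 8 to 46 counts per library, and the groups overlapped. The log2 fold change was 1.08 in WT (SE 0.39, edgeR's adjusted p = 0.102; exact permutation p = 0.0397) and 0.25 in KO clones (SE 0.48, edgeR's adjusted p = 0.816; exact permutation p = 0.437). APOBEC3A, a strongly interferon-inducible enzyme of monocytes, was at or near the floor. Its highest count was 5, 2 of 20 libraries exceeded 3 counts, both of untreated WT clones, and the treated libraries had 0 to 2 counts, so no fold change is given. The counts of the 5 libraries summed to 15 in untreated and 3 in treated WT clones, and to 4 and 2 in the KO clones.

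**Figure D4:**
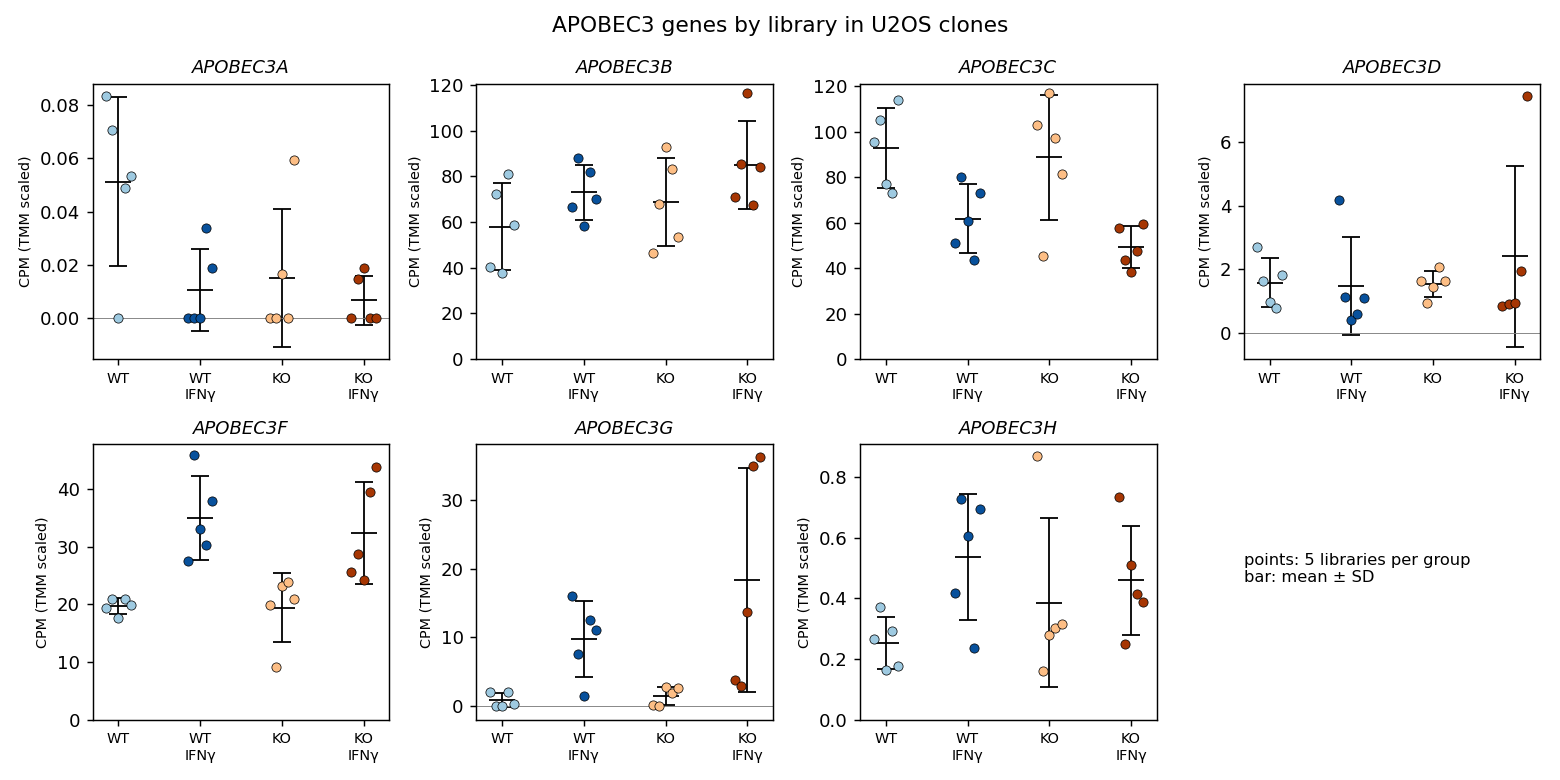
CPM after TMM scaling (y axis, a scale of its own for each gene) of the 7 APOBEC3 genes in the 4 groups (x axis), with points for the 5 libraries of a group and bars for the mean ± SD. Treated libraries lie above untreated ones without overlap for APOBEC3F in both genotypes and for APOBEC3G in KO clones, and mostly below them for APOBEC3C.

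APOBEC3H was the 1 member of 7 with a promoter in the RefSeq table used (GRCh38.p14, 250 bases before to 50 bases after the start). It is shown because interferon acts through short motifs near the start: the interferon-stimulated response element, searched as GAAA, any 2 bases and GAAA again, the γ-activated site, TTCNNNGAA, and the shorter core bound by interferon regulatory factors, AANNGAAA, each on both strands, where every match to the first also holds the third. The window held no match to the first and the second, which 3.57% and 7.66% of the 35116 promoters in the table hold, and 1 match to the core, which 22.8% hold. The sequences are the 250 bases upstream, chr22:39096994-39097243 on the plus strand, and the 30 bases around the match, chr22:39097261-39097290, with the core in capitals, 28 bases after the start.
APOBEC3H upstream: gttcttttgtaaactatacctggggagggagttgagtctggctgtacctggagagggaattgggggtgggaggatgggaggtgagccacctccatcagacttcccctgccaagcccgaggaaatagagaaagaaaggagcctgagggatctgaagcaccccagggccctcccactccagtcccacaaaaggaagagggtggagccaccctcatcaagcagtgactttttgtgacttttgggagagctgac
APOBEC3H core match: agagctgccaaAAGTGAAActtagtgcctc

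Loss of ZBTB48 was compared with WT without and with IFNγ. No APOBEC3 gene was called in either (0 of 6 tested in each, by edgeR and by DESeq2), and none had an unadjusted p under 0.05. Of all genes, 0.0154% were called without and 0.0155% with IFNγ, and 4.79% and 4.35% had an unadjusted p under 0.05. In untreated cells the log2 difference, WT minus KO, was 0.05 for APOBEC3C (SE 0.23), 0.01 for APOBEC3F (SE 0.22) and 0.03 for APOBEC3D (SE 0.36). It was -0.26 for APOBEC3B (SE 0.25), -0.61 for APOBEC3H (SE 0.47) and -0.76 for APOBEC3G (SE 1.28), with adjusted p values by edgeR from 0.980 to 0.998. Without KO replicate 1 the APOBEC3H difference was -0.0746, and that of APOBEC3G ran from -1.36 without WT replicate 1 to -0.03 with the shrinkage of DESeq2. In treated cells it was 0.32 for APOBEC3C (SE 0.19), 0.11 for APOBEC3F (SE 0.21), 0.23 for APOBEC3H (SE 0.41) and -0.22 for APOBEC3B (SE 0.17). It was -0.71 for APOBEC3D (SE 0.77) and -0.93 for APOBEC3G (SE 0.75), and each of the 6 had an adjusted p of 0.996 by edgeR. The SEs show what could be missed: for APOBEC3G, a level 2-fold higher in KO clones lay within 1 SE of the estimate at both treatments. Without KO replicates 4 and 5 the APOBEC3G difference in treated cells was 0.54, in the other direction. No member was called without KO replicate 3, nor without KO replicates 4 and 5, in any comparison.

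The responses of the genotypes were compared as an interaction over the 20 libraries. The untreated and treated library of a clone were taken as independent here. Differences between clones thus stayed in the SEs and can hide a difference between responses. No member and no gene at all was called (0%), where edgeR gave 0.409% of the genes an unadjusted p under 0.05, no member among them, and DESeq2 also called 0 genes. With the clone as a block, no member was called either. Without it, the response in WT minus that in KO clones was 0.03 for APOBEC3B (SE 0.32), 0.26 for APOBEC3C (SE 0.31), 0.09 for APOBEC3F (SE 0.31) and -0.16 for APOBEC3G (SE 1.55). It was -0.74 for APOBEC3D (SE 0.89) and 0.82 for APOBEC3H (SE 0.62), each with an adjusted p of 1.00 by edgeR. Clone by clone, the APOBEC3G responses of 2.61 to 5.82 in WT and 2.26 to 4.93 in KO clones overlapped, as did those of every other member, with exact permutation p values from 0.159 to 0.929 over the 7.

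Genes that work with or around the family were taken from lists. The share of all genes called, 3% in WT and 1.96% in KO clones, is the background of these counts. Of 10 interferon signalling factors, 6 rose in each genotype: IRF1, which drives later interferon-stimulated genes, by 4.96 and 4.72 on the log2 scale in WT and KO clones, IRF9 by 2.28 and 2.27, and SOCS1, a feedback inhibitor, by 2.20 and 2.10. JAK2 and STAT2 were among the others. Of 16 genes for uracil in DNA, its excision and its bypass, 1 rose in each genotype, against 3% and 1.96% of all genes called. SAMHD1, which breaks down deoxynucleotides and is itself a restriction factor, rose by 2.81 in WT (SE 0.18) and 2.64 in KO clones (SE 0.27). UNG, the main uracil glycosylase, differed by 0.17 and 0.11 (adjusted p = 0.646 and 0.743 by edgeR). Of 16 factors linked to APOBEC3B transcription, RELB, a subunit of non-canonical NF-κB, was called in WT clones (1.13, SE 0.22, edgeR's adjusted p = 0.00675) and not in KO clones (1.25, SE 0.63, adjusted p = 0.260), and the interaction for it was -0.14 (SE 0.70). No gene was called with IFNγ among the 6 host parts of the Vif ubiquitin ligase, the 2 tested adenosine deaminases of RNA, the 16 proliferation markers and the 14 tested neighbours within 250000 bases of the cluster. ADAR, which edits double-stranded RNA, passed the p cut-off in both genotypes at 0.98 and 0.94, just under 2-fold. The neighbours' median log2 fold change was -0.31 in WT and -0.12 in KO clones, against 0.59 and 0.48 for the APOBEC3 genes and -0.03 for all genes. At an adjusted p under 0.05 by edgeR, 4 of the 14 tested neighbours passed in WT and 3 in KO clones. The share of all genes was 11.3% and 7.88%. Of these neighbours, GTPBP1 was higher, by 0.78 and 0.79. CBX6 and SYNGR1 were lower in both genotypes, and SUN2 in WT clones.

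Once group means were taken out, the deviations of the APOBEC3 genes were compared between libraries. These values describe 20 libraries that share clones in pairs, over 21052 genes. How often any pair of genes reaches such values was not tested. APOBEC3C and APOBEC3F deviated together, with Pearson's r of 0.78, although their means went opposite ways with IFNγ. Untreated KO replicate 2 was the lowest library of its group for both genes, at 45.4 and 9.11 CPM. How far this r rests on that library was not tested. The r was 0.57 for APOBEC3C with APOBEC3H, 0.54 for APOBEC3F with APOBEC3G and 0.48 for APOBEC3D with APOBEC3G, while APOBEC3B with APOBEC3C was near 0 (-0.003). The genes most like APOBEC3B were NOL12 (0.88), PHF5A (0.87) and SMAD1 (0.86), and those most like APOBEC3C were MYT1, JAKMIP2-AS1 and LINC00511 (0.86 each). APOBEC3D was most like LCA5 (0.87), NCK2 (0.85) and UBR3 (0.84), and APOBEC3F was most like LOC101927263 (0.88), MAN1A1 (0.87) and PI15 (0.83). For APOBEC3G they were PCDHGA1 (0.88), KLRC3 (0.88) and BCL6 (0.87).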

How the data were processed

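The authors sequenced stranded polyA mRNA libraries, aligned the reads to GRCh38 with STAR 2.7.9a, kept unique mappers and counted them per RefSeq gene with featureCounts 2.4.0. They deposited these counts, unnormalized, and the strand setting of the counting is not given in the sources used here. Without it, APOBEC3B and APOBEC3B-AS1 reads cannot be told apart where the genes overlap. All 20 columns were matched to a sample by the clone name in the column header.

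Each comparison of 5 against 5 libraries was fitted with edgeR 4.0.16 (R 4.3.3) after filterByExpr and TMM scaling, with the robust quasi-likelihood test, two-sided, over all genes, and Benjamini-Hochberg adjustment. The difference between responses was fitted over 20 libraries. SEs come from the fold change and the F statistic. The study's methods name DESeq2, which was run as an alternative (1.42.0). For single members, two-sided exact permutation tests (252 permutations) compared mean log2(CPM + 0.1), and sign flips (32) were used within clones. TPM used the gene lengths given beside the deposited counts. Totals of 46652288 to 72952859 counts leave low members imprecise. The edgeR fit without a block was run on simulated counts for the IFNγ response in WT clones, the untreated genotypes and the difference between responses. The other steps were not tested in this way.

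The clone label pairs untreated and treated libraries. Deviations from the group mean correlated at r of 0.633 to 0.802 in WT clones and at 0.647, 0.791 and 0.598 in KO replicates 1 to 3, but at -0.02 and 0.05 in KO replicates 4 and 5, which correlated at 0.585 and 0.674 with each other's treated library. WT and KO numbers name different clones and were not paired. The alternatives were a replicate block by clone, with and without exchanging KO replicates 4 and 5, leaving these 2 or each replicate out, other normalization, no filter, DESeq2, glmTreat, all 20 libraries, other cut-offs and a pseudocount of 1 CPM.

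The 7 members, the lists and the cut-offs were chosen with earlier results of these data known. The text names all members, ZBTB48 and MTFP1, of each list at most 4 genes that were called, with the largest changes, and the 3 genes most like each member of at least 1 CPM. UNG, ADAR, the other called factors, the chromosome 22 neighbours and the markers were named after their values were seen. Some genes of the lists are not reported here.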

Additional observations from a re-analysis of the deposited data

Results flagged for a closer look

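In 4 of 25 groups of 5 libraries, 1 library stood apart from the others by more than Dixon's critical ratio of 0.71, where chance alone flags about 1 in 20 groups. APOBEC3D was 4.17 CPM in replicate 1 of the treated WT clones, with the nearest library at 1.11 (ratio 0.814), and 7.43 CPM in replicate 5 of the treated KO clones, with the nearest at 1.93 (ratio 0.835). APOBEC3F was 9.11 CPM in replicate 2 of the untreated KO clones, with the nearest at 19.8 (ratio 0.729). APOBEC3H was 0.869 CPM in replicate 1 of the untreated KO clones, with the nearest at 0.317 (ratio 0.781).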

How the results depend on the processing

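The number of APOBEC3 genes called was 0 in every comparison without a block and remained so under 85 of 90 alternatives. The 90 also count the genotype comparisons and the difference between responses. All 5 that differed belong to the IFNγ response within a genotype. There the number was 1 in both genotypes under a replicate block (APOBEC3G, at 3.93 in WT and 4.05 in KO clones). It was 1 in KO clones also with replicates 4 and 5 exchanged. At an adjusted p under 0.05 without a fold cut-off it was 1 in both (APOBEC3F in WT, APOBEC3C in KO clones). Why the block raised the calls was not tested.

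Some changes that were not called turned direction. Under the replicate block the untreated difference of APOBEC3D was -0.0536, and the difference between responses of APOBEC3G was 0.18, or 0.13 with the exchange. With KO replicates 4 and 5 left out, APOBEC3D was -0.57 for the IFNγ response in KO clones and 0.74 for the treated genotypes, APOBEC3G was 0.54 for the treated genotypes, and the difference between responses was -0.0545 for APOBEC3B, 0.49 for APOBEC3D and 0.68 for APOBEC3G. With DESeq2's shrinkage the difference between responses was -0.00545 for APOBEC3B and 0.0221 for APOBEC3G. With a pseudocount of 1 CPM the mean clone response of APOBEC3G differed by -0.18, with and without the exchange.

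Leaving out each replicate in turn gave, for the IFNγ response, -0.66 to 0.0665 for APOBEC3D in WT and -0.38 to 0.91 in KO clones, the lowest without KO replicate 5. For untreated genotypes it gave -0.11 to 0.17 for APOBEC3C, -0.27 to 0.19 for APOBEC3D, -0.17 to 0.10 for APOBEC3F, -1.36 to -0.40 for APOBEC3G and -0.80 to -0.0746 for APOBEC3H, and for treated genotypes -1.57 to 0.36 for APOBEC3D and -0.00841 to 0.25 for APOBEC3F. For the difference between responses it gave -0.12 to 0.14 for APOBEC3B, -1.30 to 0.31 for APOBEC3D, -0.0749 to 0.23 for APOBEC3F and -0.62 to 0.30 for APOBEC3G.

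Genes called over the whole table for IFNγ in WT clones were 585, but 976 with DESeq2 unshrunk, 1490 with the block, 187 with glmTreat and 2202 at an adjusted p under 0.05. In KO clones they were 379, but 824 with DESeq2 unshrunk, 615 shrunk, 752 with the block, 1260 with the exchange, 642 over all 20 libraries, 115 with glmTreat, 22 without replicates 4 and 5 and 1528 at an adjusted p under 0.05. Between genotypes 3 were called at each treatment, against 13 and 16 with DESeq2. Low counts limit APOBEC3A, APOBEC3D and APOBEC3H and the untreated APOBEC3G levels.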
